A study of Mus musculus with 3 samples.

Results

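The genes described here encode the machinery that copies DNA and the regulators that carry a cell from G1 into S phase. They were taken from a list of 39 mouse gene symbols, of which 38 had a probe set named for them among the 19505 named genes of the array. Mcm7, which encodes another subunit of the replicative helicase, had none and was not analysed here. All 38 had a single named probe set and passed the filter on low values, a mean log2 intensity of at least 5.02 over the arrays, which 10940 genes did. Every one of the 38 also lay above the background level of 102 on all 3 arrays, that level being the highest 95th percentile of the negative-control probe sets on any array.

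Cells were CD8 T cells from mice, activated by way of CD3 and CD28 and kept in Tc1 cytokines, a condition that drives CD8 T cells toward interferon-gamma-producing cytotoxic effectors. The groups were a control without added cholesterol, cells given 0.5 µg/ml cholesterol and cells given 0.75 µg/ml cholesterol, all 3 under the same Tc1 condition, with 1 array each. The labels give no strain, age, number of animals or cultures, treatment time or cholesterol carrier. With 1 array per group none of the differences has a replicate check, no test was possible, and precision is limited by how few arrays there are. Values are array intensities on a linear scale, and differences are log2 intensities at the stated dose minus those of the control unless said otherwise.

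Before S phase, the origin recognition complex, CDC6 and CDT1 load the MCM helicase onto DNA, and CDC45 and the GINS complex then join it to form the active helicase. Primase and the DNA polymerases copy the strands with the help of the sliding clamp PCNA, the RFC clamp loader and the single-strand binding protein RPA. Many of these genes are transcribed at the G1/S boundary under E2F transcription factors, and cyclin E with its kinase helps start S phase. T cells stimulated through their antigen receptor divide quickly, and these genes are known to be strongly expressed in them.

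The promoters of 3 genes that were at least 25% brighter than in the control at 0.75 µg/ml (Orc1, Rrm2 and Ccne1) are shown with those of the helicase genes Mcm5 and Mcm6, in which matches to the E2F motif overlap. Ccne2 also reached this size but had no promoter window available. Each window runs from 250 bases before to 50 bases after a gene start listed by RefSeq in GRCm38.p6, is written 5′ to 3′ on the gene's strand, and has matches to the E2F motif (TTTCCCGC, TTTCGCGC, TTTGCCGC or TTTGGCGC) and to CCAAT, on either strand, in capitals. A listed start need not be the one used in these cells.
Orc1, chr4:108579204-108579503, plus strand: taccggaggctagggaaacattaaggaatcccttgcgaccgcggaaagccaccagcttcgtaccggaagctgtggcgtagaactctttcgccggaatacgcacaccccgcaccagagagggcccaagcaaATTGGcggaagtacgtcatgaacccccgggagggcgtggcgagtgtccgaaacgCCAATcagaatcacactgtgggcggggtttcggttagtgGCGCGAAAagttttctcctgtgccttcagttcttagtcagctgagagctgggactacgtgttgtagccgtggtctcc
Rrm2, chr12:24708004-24708303, plus strand: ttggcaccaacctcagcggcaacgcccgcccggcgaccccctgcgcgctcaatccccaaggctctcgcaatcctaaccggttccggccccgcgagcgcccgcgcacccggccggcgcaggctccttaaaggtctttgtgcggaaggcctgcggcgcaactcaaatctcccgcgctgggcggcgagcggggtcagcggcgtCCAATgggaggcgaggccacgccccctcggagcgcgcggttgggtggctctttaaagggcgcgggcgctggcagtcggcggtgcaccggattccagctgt
Ccne1, chr7:38107441-38107740, minus strand: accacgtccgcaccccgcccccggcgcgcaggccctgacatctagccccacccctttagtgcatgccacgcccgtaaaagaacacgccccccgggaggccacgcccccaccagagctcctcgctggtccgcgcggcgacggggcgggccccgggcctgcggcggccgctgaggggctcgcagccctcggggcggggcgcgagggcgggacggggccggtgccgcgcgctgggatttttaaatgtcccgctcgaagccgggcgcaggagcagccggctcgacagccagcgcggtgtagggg
Mcm5, chr8:75109259-75109558, plus strand: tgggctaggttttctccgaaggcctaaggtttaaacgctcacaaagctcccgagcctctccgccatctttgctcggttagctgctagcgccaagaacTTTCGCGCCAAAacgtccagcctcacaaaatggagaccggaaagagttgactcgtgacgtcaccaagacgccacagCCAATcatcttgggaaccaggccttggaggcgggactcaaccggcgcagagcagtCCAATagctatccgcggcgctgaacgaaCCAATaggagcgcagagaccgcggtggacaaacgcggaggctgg
Mcm6, chr1:128359656-128359955, minus strand: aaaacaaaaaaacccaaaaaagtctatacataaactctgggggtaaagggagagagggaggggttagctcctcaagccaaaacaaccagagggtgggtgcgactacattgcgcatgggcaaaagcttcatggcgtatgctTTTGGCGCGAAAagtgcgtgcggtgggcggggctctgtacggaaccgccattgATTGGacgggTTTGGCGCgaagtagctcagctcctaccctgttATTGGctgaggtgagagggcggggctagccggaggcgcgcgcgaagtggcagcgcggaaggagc

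The Orc1 window held 1 match to the E2F motif, at bases 224 to 231 counted from its 5′ end, and 2 to CCAAT. In the Mcm5 window a forward TTTCGCGC at bases 98 to 105 overlapped a reverse-strand TTTGGCGC at bases 102 to 109. The Mcm6 window held the same overlapping arrangement with the strands exchanged, at bases 141 to 152, and a further TTTGGCGC at bases 204 to 211. The Rrm2 window held 1 CCAAT and no match to the E2F letters, and neither motif was found in the Ccne1 window. Of the 39 genes, 33 had 1 or more windows in the RefSeq table, and 13 of their 39 windows (33.3%) held an E2F match, against 744 of all 32851 windows of this length (2.26%). CCAAT was present in 24 of the 39 windows (61.5%) and in 37.4% of all windows. The 12 measured genes with an E2F match had a median log2 difference of 0.07 at 0.5 µg/ml and -0.02 at 0.75 µg/ml, and the 20 measured genes without one had medians of 0.06 and 0.13 at those doses. E2f1 counts among these 20 although its listed window may not hold its main start, and without it the medians over 19 genes were 0.08 and 0.14. At 0.75 µg/ml the 12 genes with a match ranged from -0.14 to 0.49 and the 20 without one from -0.39 to 0.41, so the 2 sets overlapped. A match is a description of the letters and not a binding site. A gene without these exact letters in its window may still be an E2F target.

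Differences from the control among the replication and G1/S genes ran from 1.40-fold above it (Orc1, at 0.75 µg/ml) to 0.765-fold of it (E2f1, at the same dose). None of the 38 differed 2-fold from the control at 0.5 µg/ml, where this fold was reached upward by 0.0914% and downward by 0.0548% of all 10940 genes. None did at 0.75 µg/ml either, where the shares of all genes were 0.356% upward and 1.57% downward. Between the doses the count was again 0, against 0.402% of all genes 2-fold up and 1.19% 2-fold down at 0.75 relative to 0.5 µg/ml. Since these shares are small, a count of 0 among 38 genes is near the background too. The cells' sterol synthesis genes did differ on the same arrays. Hmgcs1, the HMG-CoA synthase gene, was at 1848 in the control, 1295 with 0.5 µg/ml and 285 with 0.75 µg/ml.

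**Figure D1:**
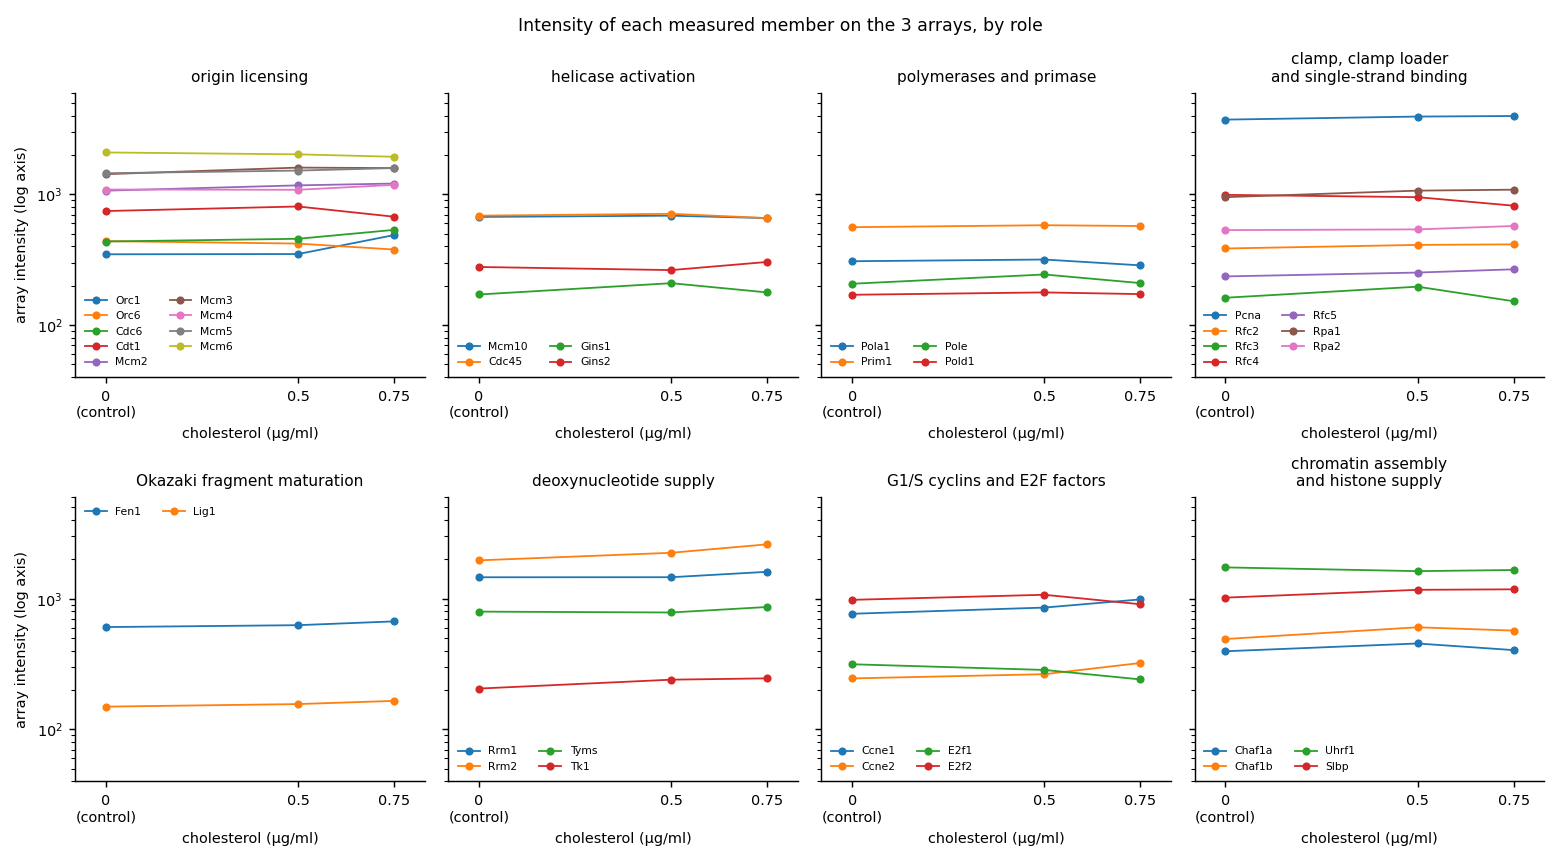
Array intensity (log axis) of the 38 measured genes against cholesterol dose in µg/ml, with 1 line per gene and 1 array per point, in panels by role. Most lines are close to level, and Orc1 (348 in the control, 350.0 with 0.5 µg/ml and 489 with 0.75 µg/ml) is among the steepest.

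A smaller threshold, 25% above or 20% below the other array, was used to describe the genes further. At 0.5 µg/ml none of the 38 reached it, whereas 5.91% of all genes did so upward and 5.18% downward. Among the 6287 genes at least as bright as the dimmest of the 38, a comparison added after the data were seen, the shares at that dose were 2.04% upward and 2.67% downward, so a count of 0 among 38 is near the background. At 0.75 µg/ml 4 were at least 25% above the control (Orc1, Rrm2, Ccne2 and Ccne1), which is 10.5% of the 38 against 10.8% of all genes, so the share was near the background. Only E2f1 was at least 20% below the control at that dose, 2.63% of the 38 against 13.1% of all genes. The nearest genes short of the threshold at 0.75 µg/ml were Cdc6 at 0.30 and Rfc4 at -0.28, while Ccne1 at 0.37 and E2f1 at -0.39 lay just past it. Among those 6287 genes 8.16% were past the threshold upward and 11.3% downward at 0.75 µg/ml.

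The 38 genes nevertheless lay slightly above the control more often than below it. At 0.5 µg/ml 30 were above and 8 below, with a median log2 difference of 0.07 and a range from -0.14 (E2f1) to 0.30 (Chaf1b), while 52.9% of all genes were above and their median was 0.01. At 0.75 µg/ml 27 were above and 11 below, with a median of 0.11 and a range from -0.39 (E2f1) to 0.49 (Orc1), against 50.2% of all genes above and a median of 0.00. With each array centred on its median, 29 were above the control at the lower dose and 23 at the higher one. The medians of the 38 were then 0.06 and 0.07, against 0.01 and -0.04 for all genes. Both doses share the control array, so the 24 genes above the control at both are not independent evidence from each dose. Other cell cycle lists leaned the same way in the values as deposited. Above the control at 0.5 and 0.75 µg/ml were 95.8% and 70.8% of measured mitosis and spindle genes. The shares were 70% and 60% for further replication genes and 59.1% and 68.2% for G1/S regulators outside the list. They count differences of any size, such as Espl1 at 0.0003 and Tpx2 at 0.0006 at the lower dose. At the higher dose Ccnb2, Mki67 and Espl1 were at 0.03, 0.04 and 0.04. Centring shifted differences of the 38 by up to 0.04, and the shares of these other lists were not recalculated with it. The SD over the 38 genes was 0.11 at 0.5 µg/ml and 0.19 at 0.75 µg/ml, and over all genes it was 0.21 and 0.36 at those doses. Between the doses 21 genes were higher and 17 lower at 0.75 than at 0.5 µg/ml, where 46.2% of all genes were higher, with a median of 0.01. That last median was -0.02 with each array centred on its median, so it had no settled sign.

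**Figure D2:**
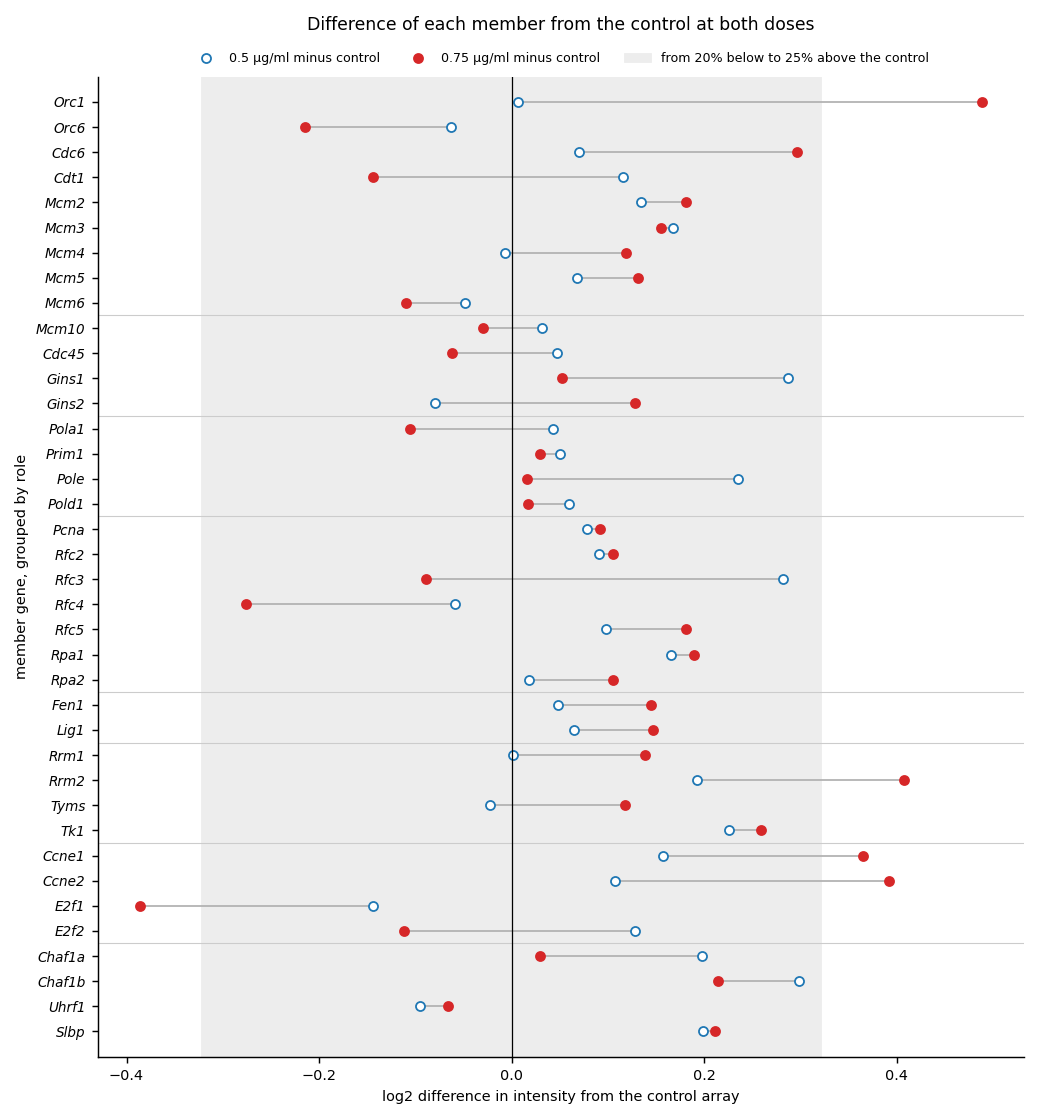
Log2 difference in intensity from the control array for each of the 38 measured genes, with open points for 0.5 µg/ml and filled points for 0.75 µg/ml and rules between role groups. All open points lie inside the shaded band, which runs from 20% below to 25% above the control, and 5 filled points lie outside it, E2f1 on the low side and Orc1, Rrm2, Ccne1 and Ccne2 on the high side.

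Positive-control probe sets and other genes of like brightness give 2 scales for these sizes. For the 875 of them at least as bright as the dimmest of the 38 genes, the SD of the log2 difference from the control was 0.22 at the lower dose and 0.25 at the higher. At 0.75 µg/ml, 18.6% of these probe sets passed the smaller threshold in either direction, and at 0.5 µg/ml 13.5% did. Over the 6287 genes at least as bright as the dimmest of the 38 the SD at 0.5 µg/ml was 0.16, below that of the positive controls, and 0.33 at 0.75 µg/ml, above it. Because the cells were measured in bulk, a different share of cells in S phase and a different amount of RNA per cell cannot be told apart.

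**Figure D3:**
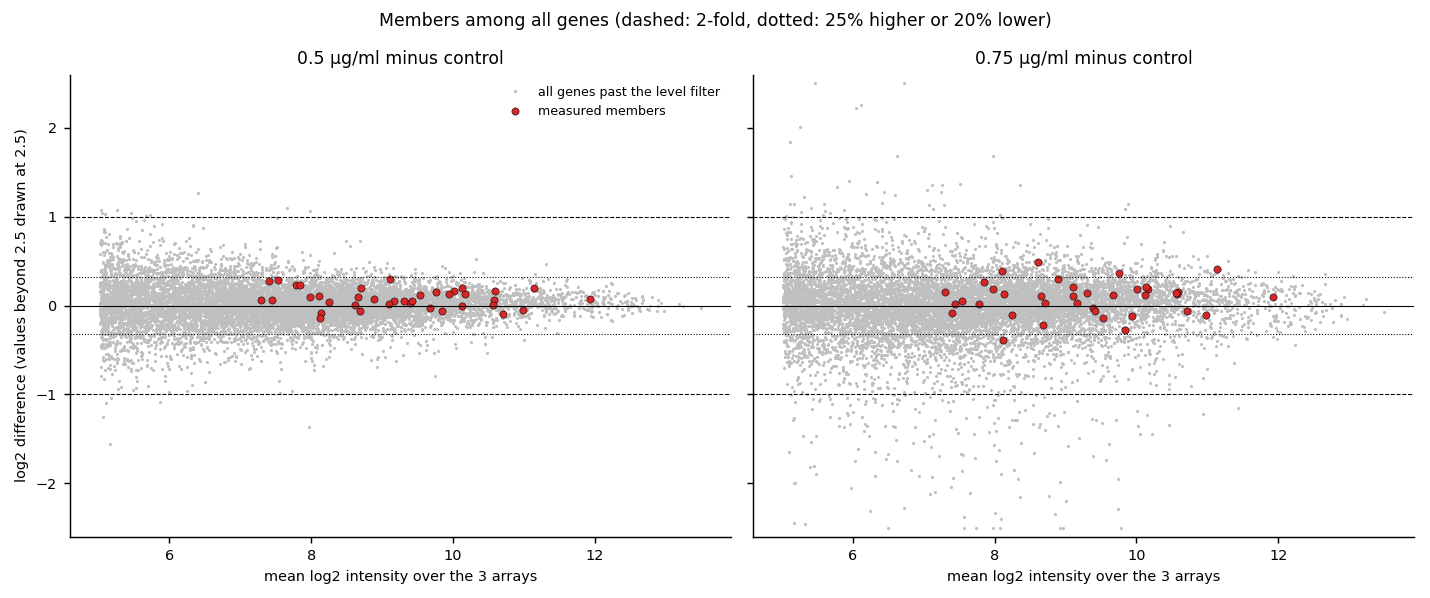
Log2 difference from the control (y axis) against mean log2 intensity over the 3 arrays (x axis) for all 10940 genes past the level filter, in grey, and the 38 replication and G1/S genes, in red, at 0.5 µg/ml (left) and 0.75 µg/ml (right). The red points stay within 0.49 of zero in both panels while grey points extend past the 2-fold lines, mostly downward at 0.75 µg/ml.

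Among the genes that license origins, Orc1 differed the most from the control at 0.75 µg/ml and lay at 0.01 at 0.5 µg/ml, where Mcm3, at 0.17, differed the most. Orc1, which encodes the largest subunit of the origin recognition complex, was at 348 in the control, 350.0 with 0.5 µg/ml and 489 with 0.75 µg/ml. The control and the lower dose were level and the higher dose was 1.40-fold above the control, a log2 difference of 0.49 that was the highest among the 38. Orc6, another subunit of that complex, was at 439.5, 421 and 379 in the same order, lower at each step. Cdc6, the ATPase that brings the helicase to the origin, was at 436, 458 and 536, highest at 0.75 µg/ml. Cdt1, its partner in loading, was at 746, 809 and 675, highest at 0.5 µg/ml and lowest at 0.75 µg/ml. The 2 loading factors were thus on opposite sides of the control at the higher dose, Cdc6 at 0.30 and Cdt1 at -0.14.

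The 5 measured MCM genes encode subunits of the ring-shaped helicase that unwinds the double helix. Mcm2 was at 1069 in the control, 1173 with 0.5 µg/ml and 1212 with 0.75 µg/ml, and Mcm5 at 1453, 1523 and 1592. Both were lowest in the control, and so was Mcm3, at 1429, 1605 and 1590.5. Mcm4, at 1091, 1086 and 1184, was level between the control and the lower dose. Mcm6 was highest in the control, at 2095, 2027 and 1942. The 5 differences spanned -0.05 to 0.17 at 0.5 µg/ml and -0.11 to 0.18 at 0.75 µg/ml, so the subunits of the ring stayed within 0.29 log2 units of one another.

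The genes that turn the loaded helicase into an active one were near the control at 0.75 µg/ml, with differences from -0.06 to 0.13. Mcm10, an activator of the helicase, was at 673 in the control, 688 with 0.5 µg/ml and 659 with 0.75 µg/ml. Cdc45, a helicase cofactor, was at 688, 711 and 659. The 2 arrays with cholesterol lay on either side of the control for both of these genes, by small amounts. Gins1 and Gins2 encode subunits of the GINS complex, and Gins1 was at 172, 209 and 178, highest at 0.5 µg/ml. Gins2 showed another order, at 279, 264 and 305, which describes these single arrays only. Gins3 and Gins4, outside the list, are given after their values were seen. Gins3 differed by -0.04 at 0.5 µg/ml and -0.06 at 0.75 µg/ml, and Gins4 by 0.01 and -0.12.

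The 4 listed DNA polymerase and primase genes were slightly higher at 0.5 µg/ml than in the control and lower at 0.75 than at 0.5 µg/ml, except that Pold1 was 0.01 higher at 0.75 than at 0.5 µg/ml with quantile normalization. Pole, the catalytic subunit of the leading-strand polymerase epsilon, was at 207 in the control, 244 with 0.5 µg/ml and 209.7 with 0.75 µg/ml. It stood out only at the lower dose, by 0.24. Pola1, the catalytic subunit of polymerase alpha, was at 308, 318 and 287. Prim1, the catalytic subunit of primase, was at 562, 581 and 573, and Pold1, that of the lagging-strand polymerase delta, was at 171, 178 and 173. These last 2 genes stayed within 0.06 log2 units of the control at both doses. Of 7 other subunits, outside the list and given after their values were seen, 4 were higher at 0.75 than at 0.5 µg/ml, Prim2 by 0.11, Pola2 by 0.07, Pole3 by 0.02 and Pole4 by 0.25. The other 3, Pole2, Pold2 and Pold3, differed by -0.12, -0.09 and -0.07.

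The clamp gene Pcna was at 3736 in the control, 3943 with 0.5 µg/ml and 3982 with 0.75 µg/ml, close to level. The RFC genes encode the small subunits of the pentameric complex that opens the clamp and places it on DNA, and they did not share 1 pattern. Rfc2 was at 386, 411 and 415 and Rfc5 at 236, 253 and 267, both lowest in the control. Rfc3 was at 162 in the control, 197 with 0.5 µg/ml and 152 with 0.75 µg/ml, highest at the lower dose. Its difference between the doses, -0.37, was the only one among the 38 at least 20% lower at 0.75 than at 0.5 µg/ml (11.3% of all genes), and with quantile normalization of the arrays it was -0.31 and no longer reached that size. Orc1, at 0.48, was the only one at least 25% higher at 0.75 than at 0.5 µg/ml (7.59% of all genes). Rfc4 was at 993, 953 and 820.4, lowest at 0.75 µg/ml with a difference of -0.28 from the control. At that dose the 4 subunits spanned 0.46 log2 units.

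Rpa1 and Rpa2, which encode subunits of the single-strand binding protein RPA, were higher at each step, although the difference of Rpa1 between the doses was 0.02 as deposited and -0.01 with each array centred on its median. Rpa1 was at 954 in the control, 1069 with 0.5 µg/ml and 1087 with 0.75 µg/ml, and Rpa2 at 533, 540.2 and 574. Rpa3, outside the list and given after its values were seen, differed from the control by -0.12 at 0.5 µg/ml and 0.07 at 0.75 µg/ml. Fen1, the flap endonuclease that trims Okazaki fragments, was at 607, 628 and 671. Lig1, the ligase that joins them, was at 149, 156 and 165. Both listed maturation genes were lowest in the control and highest at 0.75 µg/ml, where they differed from it by 0.14 and 0.15. Rnaseh2a and Dna2, outside the list and given after their values were seen, were highest in the control. Rnaseh2a differed from it by -0.04 at 0.5 µg/ml and -0.10 at 0.75 µg/ml. Dna2, above background in the control only, differed by -0.30 and -0.13.

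The 4 listed genes that supply deoxynucleotides were all above the control at 0.75 µg/ml and all higher at 0.75 than at 0.5 µg/ml, with a median difference from the control of 0.20. Rrm2, the regulated subunit of ribonucleotide reductase, was at 1967 in the control, 2247 with 0.5 µg/ml and 2609 with 0.75 µg/ml. It was higher at each step and 1.33-fold above the control at the higher dose. Rrm1, the large subunit of the same enzyme, was at 1459.8, 1461 and 1607, level between the control and the lower dose. Tyms, which makes thymidylate, was at 797, 785 and 865, and the thymidine salvage kinase gene Tk1 was at 205, 240.3 and 246. In Tk1 both doses were alike and above the control, and in Tyms only the higher dose was above it. Related genes outside the list, given after their values were seen, were mixed. Dck, a deoxynucleoside kinase gene, was at 318 in the control, 349 with 0.5 µg/ml and 371 with 0.75 µg/ml, higher at each step. Rrm2b, the p53-regulated reductase subunit, was at 108 in the control, 118 with 0.5 µg/ml and 85.7 with 0.75 µg/ml, below background at the higher dose. Dut, which removes dUTP, was at 0.13 and 0.08 from the control, lower at 0.75 than at 0.5 µg/ml.

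The cyclin E genes and the E2F activator genes E2f1 and E2f2 lay on opposite sides of the control at 0.75 µg/ml. Ccne1, which encodes cyclin E1, was at 767 in the control, 856 with 0.5 µg/ml and 989 with 0.75 µg/ml, and Ccne2, which encodes cyclin E2, was at 246, 265 and 323. Both were higher at each step and ended 1.29-fold and 1.31-fold above the control. E2f1, an activating E2F factor, was at 315, 285 and 241, lower at each step. Its difference at 0.75 µg/ml was -0.39, the lowest among the 38. E2f2, a related activator, was at 981, 1072 and 907, above the control at the lower dose and below it at the higher one, where it differed by -0.11. E2f3, another activator, which is not on the list and is given after its values were seen, differed by -0.26 at the lower dose and, on the side of the cyclin E genes, by 0.04 at the higher one. The 4 listed genes of this role spanned 0.78 log2 units at 0.75 µg/ml, the widest span of any of the 8 roles. Origin licensing was close to it at 0.70, and the polymerases and primase spanned 0.13.

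Of the genes for chromatin assembly and histone supply, 3 were above the control at both doses and Uhrf1 was below it, except that Chaf1a was at -0.01 at 0.75 µg/ml with each array centred on its median. Chaf1a and Chaf1b encode subunits of the factor that places histones on new DNA. Chaf1a was at 396 in the control, 455 with 0.5 µg/ml and 405 with 0.75 µg/ml, and Chaf1b at 492, 605 and 571. Both subunits were highest at 0.5 µg/ml, where Chaf1b, at 0.30, had the highest difference among the 38. Slbp, whose product binds histone mRNA, was at 1019, 1170.3 and 1181, with the doses level. Uhrf1, which keeps up DNA methylation on new strands, was at 1737, 1626 and 1659, with the control highest.

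Ordered by dose, 17 of the 38 genes were higher at each step from the control through 0.5 to 0.75 µg/ml, which 21.3% of all 10940 genes were. These 17 included both cyclin E genes, Rrm1, Rrm2, Tk1, Rpa1, Rpa2, Pcna, Fen1 and Lig1. With each array centred on its median 12 of them kept this order, and Pcna, Rfc2, Rpa1, Rrm1 and Slbp lost it. Lower at each step were 4 genes (E2f1, Mcm6, Orc6 and Rfc4), against 19.8% of all genes, and Uhrf1 joined them with centring or quantile normalization. The highest array was that at 0.5 µg/ml for 13 genes, among them Pole, Pola1, Prim1, Pold1, Chaf1a and Chaf1b, and for 30.5% of all genes. With centring 17 genes were highest at 0.5 µg/ml, Pcna, Rfc2, Rpa1 and Slbp being added. With quantile normalization 12 were, without Pold1. Many of these steps were smaller than the positive-control spread, so an order of 3 single arrays describes those arrays only.

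Other genes of the pathway behaved much like the 38. Of 42 further replication genes, 40 were measured, and at 0.5 µg/ml 1 passed the smaller threshold upward (Dscc1, below background on all 3 arrays) and none downward, against 5.91% and 5.18% of all genes. At 0.75 µg/ml 4 passed it upward and 2 downward (Mcm8 and Rrm2b), against 10.8% and 13.1% of all genes, with a median difference of 0.05. The 4 with the largest mean differences among those above background on any array were all highest at 0.75 µg/ml. Asf1a, a histone chaperone gene, was at 119 in the control, 136 with 0.5 µg/ml and 171 with 0.75 µg/ml. Orc2, a further subunit of the origin recognition complex, was at 134, 152 and 181, highest at 0.75 µg/ml like Orc1. Other subunits, given after their values were seen, were nearer the control at that dose. Orc3 differed by 0.16 at 0.5 µg/ml and 0.03 at 0.75 µg/ml, and Orc4 by 0.06 and 0.08. Orc5 was not measured. Pole4, an accessory subunit of polymerase epsilon, was at 900.5, 992 and 1179, an order unlike that of Pole. The helicase gene Recql4 was at 82.1, 91.9 and 114, above background at the higher dose only.

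Among 22 measured G1/S regulators outside the list, 3 passed the smaller threshold upward and 1 downward at 0.75 µg/ml (13.6% and 4.55%, against 10.8% and 13.1% of all genes), with a median of 0.11. At 0.5 µg/ml 1 passed it upward (E2f6, 4.55% against 5.91% of all genes) and none downward. E2f7, a repressor of E2F target genes, was at 181 in the control, 204 with 0.5 µg/ml and 307 with 0.75 µg/ml, 1.70-fold above the control at the higher dose. E2f6, another repressive family member, was at 145, 195 and 214. Both were highest at 0.75 µg/ml, where E2f1 was lowest, and a link between them was not tested. The family members E2f8, E2f4 and E2f5, given after their values were seen, differed by 0.32, 0.28 and -0.02 at that dose. E2f5 was below background on all 3 arrays. Cdkn1b, which encodes the cyclin E-CDK2 inhibitor p27, was at 621 in the control, 618 with 0.5 µg/ml and 406 with 0.75 µg/ml. It was level at the lower dose and at -0.61 at the higher one. Cdkn1a, the gene for the inhibitor p21, is given after its values were seen. It differed by -0.11 at 0.5 µg/ml and, opposite to Cdkn1b, by 0.25 at 0.75 µg/ml. Tfdp2, an E2F dimer partner, was at 376, 311 and 303, lower at both doses.

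The G1 genes named whatever their values were Cdk2, Ccnd2, Ccnd3 and Myc, beside Cdkn1b. Cdk2, the kinase partner of cyclin E, was at 1223 in the control, 1267 with 0.5 µg/ml and 1303 with 0.75 µg/ml. The D-type cyclin genes Ccnd2 and Ccnd3 differed by -0.14 and 0.01 at 0.75 µg/ml. Myc, which promotes growth and cell cycle entry, was at 5925, 5703 and 5306, with a difference of -0.16 at the higher dose. Cdk4 and Cdk6, the kinases of the D-type cyclins, and the CDK-activating phosphatase gene Cdc25a are given after their values were seen. Cdk4 differed by 0.15 at 0.5 µg/ml and 0.13 at 0.75 µg/ml, Cdk6 by 0.27 and 0.18, and Cdc25a by 0.21 and 0.25, all above the control and short of the smaller threshold.

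Mitosis and spindle genes, which follow in the cell cycle, had medians of 0.09 at 0.5 µg/ml and 0.08 at 0.75 µg/ml over 24 measured genes, against 0.07 and 0.11 for the 38. The smaller threshold was passed upward by 1 of them at the lower dose and by 2 at the higher dose, and downward by none at either, the upward shares being 4.17% and 8.33% against 5.91% and 10.8% of all genes. Ccna2, the cyclin of S phase and G2, was at 1069 in the control, 1387 with 0.5 µg/ml and 1342 with 0.75 µg/ml. Cdc20, an activator of the anaphase-promoting complex, was at 512, 538 and 763, high at the upper dose alone. Cdk1, the mitotic kinase gene, differed by 0.18 and 0.30 at the rising doses, and the checkpoint gene Bub1b by 0.27 and 0.28. The proliferation marker Mki67 was at 2033, 2156 and 2085, close to level.

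**Figure D4:**
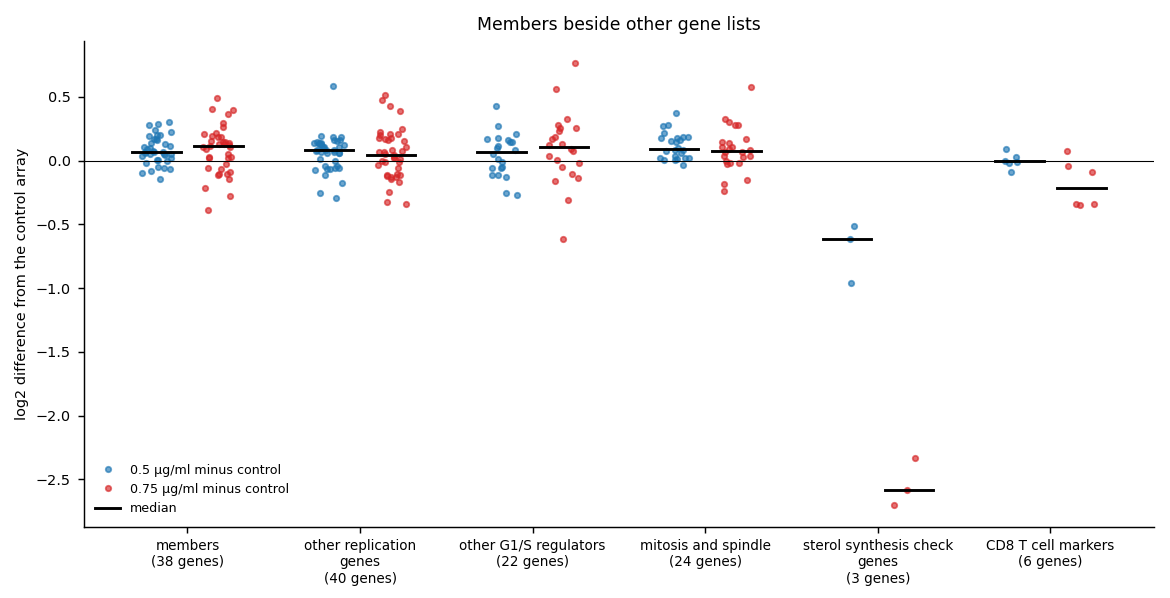
Log2 difference from the control for single genes (points) and list medians (black bars), at 0.5 µg/ml (blue) and 0.75 µg/ml (red), for the 38 replication and G1/S genes and 5 other lists. The 4 cell cycle lists have medians between 0.05 and 0.11 while the 3 sterol synthesis genes have medians of -0.62 and -2.58.

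The CD8 T cell label was borne out by bright lineage genes and dim markers of other cells. The 6 CD8 T cell markers lay between 720.2 and 4650.1 on all arrays. Of these, Cd8a and Cd8b1 encode CD8 itself, and the others belong to the T cell receptor complex. Cd8a was at 4225 in the control, 4164 with 0.5 µg/ml and 3313 with 0.75 µg/ml, and Cd8b1 at 2574, 2621 and 2030. The summed intensity of the 6 was 16372 in the control, 16461 with 0.5 µg/ml and 14618 with 0.75 µg/ml. At the higher dose Cd8a, Cd8b1 and Cd3d each differed by -0.35 or -0.34. The other markers, Cd3g, Cd247 and Cd3e, differed by -0.09, -0.05 and 0.07 at that dose. The 5 myeloid and 3 NK cell markers were under the background level on every array, as were 3 of 4 measured B cell markers. Cd79b reached 111 in the control, and Zbtb7b, a CD4-lineage factor, was above background on all 3 arrays at 178, 235 and 209, with Cd4 itself below it. The part of these marker differences in the values of the replication genes was not tested.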

How the data were processed

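Total RNA from 3 samples was extracted with Trizol, labelled with biotin and hybridised to whole-transcript arrays, per the labels' protocols. The authors deposited an intensity for each probe set on every array, linear judging by its range. How background, summarisation and normalization were handled is not stated in the labels. Of 28846 probe sets, 22206 were for transcripts, of which 19572 had 1 gene symbol in the platform annotation, 0 several and 2634 none. All 38 symbols matched RefSeq by gene identifier. The brightest probe set by mean stood for each gene, log2 was taken with a floor of 1 that no value fell under, and nothing was rescaled. Differences were counted past 2-fold and past a smaller threshold (25% up or 20% down, the same size on the log scale) beside the same count over all genes kept. The genes, lists and naming rule (all 39 listed genes, the 4 of each other list with the largest mean difference, and a fixed set) were chosen with earlier results of these data known. Steps were tested on simulated data. Alternatives were array centring, quantile normalization, a background floor, averaged probe sets, a pseudocount of 16, no level filter and, added later, a brighter set of background genes. Promoter windows were searched for exact letters. Python 3.11.15, numpy 2.4.6, pandas 2.3.3 and matplotlib 3.10.9 were used.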

Additional observations from a re-analysis of the deposited data

How the results depend on the processing

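Centring, quantile normalization and the pseudocount each left the count past 2-fold at 0 for the 38 genes in all 3 comparisons. Against the control at 0.75 µg/ml the count past the smaller threshold was 4 upward and 1 downward under each of these 3 settings. The background floor, averaged probe sets and no level filter could not move a value of the 38, which each have 1 probe set, lie above background on every array and pass the filter, so they bear only on the shares of all genes. With quantile normalization the count at least 20% lower at 0.75 than at 0.5 µg/ml was 0 in place of 1, Rfc3 then lying at -0.31, and no other count of the 38 moved by over 1.5 times. The median difference ranged from 0.06 to 0.07 at 0.5 µg/ml, from 0.07 to 0.11 at 0.75 µg/ml and from -0.02 to 0.03 between the doses. With centring 12 of the 17 genes kept the order higher at each step, Pcna, Rfc2, Rpa1, Rrm1 and Slbp losing it, and with quantile normalization 16 kept it, Rrm1 losing it. The genes highest at 0.5 µg/ml numbered 13 as deposited, 17 with centring and 12 with quantile normalization. Centring each array on its median left 29 genes above the control at the lower dose and 23 at the higher one. The largest shift of any single gene's difference was 0.06, under quantile normalization. The share of all genes past the smaller threshold depended on dim genes more than that of the 38 did, since raising dim values to the background level left 5.94% past it upward and 8.18% downward at 0.75 µg/ml. No paired analysis was possible because each group had 1 array, and for the same reason no array could be left out.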
